A study of Mus musculus with 9 samples.

Results

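A set of 36 genes of endothelial cells and of the growth of blood vessels was followed in RNA sequenced from pancreatic islets. The genes were chosen by name, for their known roles, with earlier results of these data known. All 36 were found by symbol among the 56941 gene identifiers of the count table, and all 36 were among the 18548 genes with enough counts to be tested. The islets came from wild-type male C57BL/6J mice that were 15 weeks old when the diets began. The mice ate a low fat diet (LFD, 10% fat, 3 libraries), a high fat diet (HFD, 60% fat, 2 libraries) or a ketogenic diet (KD, 89.9% fat, 4 libraries) for 9 months, and the study asked how a ketogenic diet affects transcripts in islets. The labels do not say whether a library holds the islets of 1 mouse or of several, so p-values measure the spread between these libraries.

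Islets are among the most densely perfused tissues, and their capillaries are fenestrated, with thin pores closed by diaphragms made of the protein PLVAP. Beta cells secrete VEGF-A, which binds the receptors KDR and FLT1 on endothelial cells and keeps this capillary bed in place. Angiopoietins act through the receptor TEK, also called TIE2, and ETS and SOX family transcription factors maintain the endothelial program.

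Library totals ran from 15513502 to 26588390 counts. Whole islet preparations hold other cells, and their markers differed between libraries. A list of 21 acinar genes took 14.4% to 33.9% of counts on LFD, 10.7% to 17.8% on HFD and 19.5% to 57.7% on KD. A list of 10 beta cell genes took 5.72% to 9.49% on LFD, 11.6% to 12.9% on HFD and 1.68% to 12.8% on KD. A list of 12 lymphocyte genes summed to 66.8 to 1230 CPM on LFD, 56.5 to 73.8 on HFD and 6.15 to 26.1 on KD, where CPM is counts per 1e6 of the TMM-scaled library size. The 36 genes took 0.136% to 0.147% of all counts on LFD, 0.225% and 0.253% on HFD, and 0.0601% to 0.142% on KD. After TMM scaling their summed level was 1090 to 1360 CPM on LFD, 1680 to 1830 on HFD, and 972 to 1510 on KD. KD replicate 3 was the lowest of the 9 libraries for 20 of the 36 genes, and LFD replicate 3 for 12 of them.

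To show the sequences upstream of genes that were highest together on HFD, promoters were read from RefSeq (GRCm38.p6), whose table holds entries for 19 of the 36 genes. The count table was made on GRCm39 per the submitters' processing notes, so these coordinates belong to the RefSeq table and not to the counts. The 250 bases before the start are printed for Kdr, Flt1 and Tek, receptors with among the lowest p for HFD against LFD, and for Calcrl and Emcn, which hold a composite FOX:ETS motif. Capitals mark GGAAG (the ETS core), AACAGGAA (FOX:ETS, whose GGAA can overlap the ETS core) or AACAAAG (SOX) on either strand.
Kdr, chr5:75978456-75978705, minus strand: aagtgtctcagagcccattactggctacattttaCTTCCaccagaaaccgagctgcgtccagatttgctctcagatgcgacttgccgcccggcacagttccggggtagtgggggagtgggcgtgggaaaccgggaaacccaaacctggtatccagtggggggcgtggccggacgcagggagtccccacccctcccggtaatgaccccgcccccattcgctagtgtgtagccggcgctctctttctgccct
Flt1, chr5:147726012-147726261, minus strand: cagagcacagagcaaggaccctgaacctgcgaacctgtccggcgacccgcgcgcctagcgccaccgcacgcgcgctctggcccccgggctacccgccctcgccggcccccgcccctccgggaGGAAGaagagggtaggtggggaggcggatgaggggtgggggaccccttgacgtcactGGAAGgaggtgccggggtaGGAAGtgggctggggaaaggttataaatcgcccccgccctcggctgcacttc
Tek, chr4:94739039-94739288, plus strand: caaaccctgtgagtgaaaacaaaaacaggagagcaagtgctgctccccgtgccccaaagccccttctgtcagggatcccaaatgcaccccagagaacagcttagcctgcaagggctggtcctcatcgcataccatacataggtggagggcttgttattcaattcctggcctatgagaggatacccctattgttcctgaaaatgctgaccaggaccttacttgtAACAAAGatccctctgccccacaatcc
Calcrl, chr2:84425267-84425516, minus strand: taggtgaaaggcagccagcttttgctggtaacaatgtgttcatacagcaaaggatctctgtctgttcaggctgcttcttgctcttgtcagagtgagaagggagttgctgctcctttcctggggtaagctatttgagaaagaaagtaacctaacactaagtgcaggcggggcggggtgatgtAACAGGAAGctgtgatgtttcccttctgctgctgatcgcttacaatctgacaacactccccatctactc
Emcn, chr3:137340828-137341077, plus strand: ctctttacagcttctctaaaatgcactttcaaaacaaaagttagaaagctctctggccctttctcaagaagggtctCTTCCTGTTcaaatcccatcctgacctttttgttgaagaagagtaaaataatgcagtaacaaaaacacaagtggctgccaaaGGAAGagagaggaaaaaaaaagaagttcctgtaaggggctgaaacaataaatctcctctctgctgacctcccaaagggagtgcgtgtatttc
The ETS core lay in 19 of the 25 promoter entries of these genes (76%) and in 64.1% of all 32851 entries of the table. The FOX:ETS letters lay in 3 of the 25 (12%), those of Calcrl, Egfl7 and Emcn, against 2.25% of all entries. The SOX letters lay in 2 of the 25 (8%), those of Apln and Tek, against 5.03%, and the longer ETS letters CCGGAAGT in 0 of the 25 against 2.88%. A match describes the letters only. Sox18, the gene that passed the test below, is named without a sequence.

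Levels between genes were compared as CPM per kilobase of exon, with exon lengths from GENCODE M21, over all 9 libraries. The fenestral diaphragm gene Plvap was highest at 52.8 CPM per kilobase, followed by the ligand gene Vegfa at 32.0 over all libraries, the TGF-beta co-receptor Eng at 17.8 and the sialomucin Podxl at 15.2. On LFD alone Plvap (38.5 ± 9.18, SD, n = 3) and Vegfa (34.0 ± 3.01, SD, n = 3) differed by less than the spread between libraries. The next 3 genes were close together on this scale, with Pecam1 at 11.6, Ptprb at 10.9 and Kdr at 10.8. Their order did not exceed the spread of Pecam1, whose LFD libraries alone gave 12.4 ± 3.47 (SD, n = 3). The lowest levels per kilobase were those of the transcription factor genes Tal1 (0.366) and Sox17 (0.543), the peptide gene Apln (0.592), the tight junction gene Cldn5 (0.617) and the apelin receptor gene Aplnr (0.899). The defining endothelial markers Pecam1, Cdh5, Kdr, Tie1, Emcn, Plvap, Erg and Robo4 were detected in every library. In bulk samples, fewer cells of a type and less RNA per cell cannot be told apart.

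Most of the 36 genes had a higher level on HFD than on LFD. The median log2 fold change for HFD against LFD was 0.50, a ratio of 1.42, where the median over all genes tested was 0.00. The log2 change was above 0 for 30 of the 36, against 49.8% of all genes, and it stayed above 0 for 29 to 35 of them in the alternatives that kept all 36 (26 of the 30 left by a filter of 5 CPM). Both HFD libraries lay above all 3 LFD libraries for 23 of the 36, where this held for 13.4% of all genes, and for 0 of the 36 did both lie below, against 14.1%. No single gene passed the adjusted threshold. By edgeR's quasi-likelihood test, 0 of the 36 and 0% of all genes reached a false discovery rate (FDR, the Benjamini-Hochberg adjusted p over all tested genes) under 0.05. The unadjusted edgeR p was under 0.05 for 16 of the 36, against 9.99% of all genes. All 16 were higher on HFD, against 3.55% of all genes, and none was lower, against 6.44%. DESeq2 called 5 of the 36, Kdr, Flt1, Tek, Egfl7 and Sox18, among 256 genes in all, and limma-voom called 0 of the 36 among 10 genes in all. In simulated data for this contrast, with 18023 genes, edgeR recovered 31% of 2-fold changes.

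These 36 genes are carried largely by 1 cell type, so they are not independent of each other. With the acinar score as a covariate, 32 of the 36 were above 0 for HFD against LFD and their median was 0.51. Whether the larger beta cell share of the HFD libraries has a part in this was not tested.

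**Figure D1:**
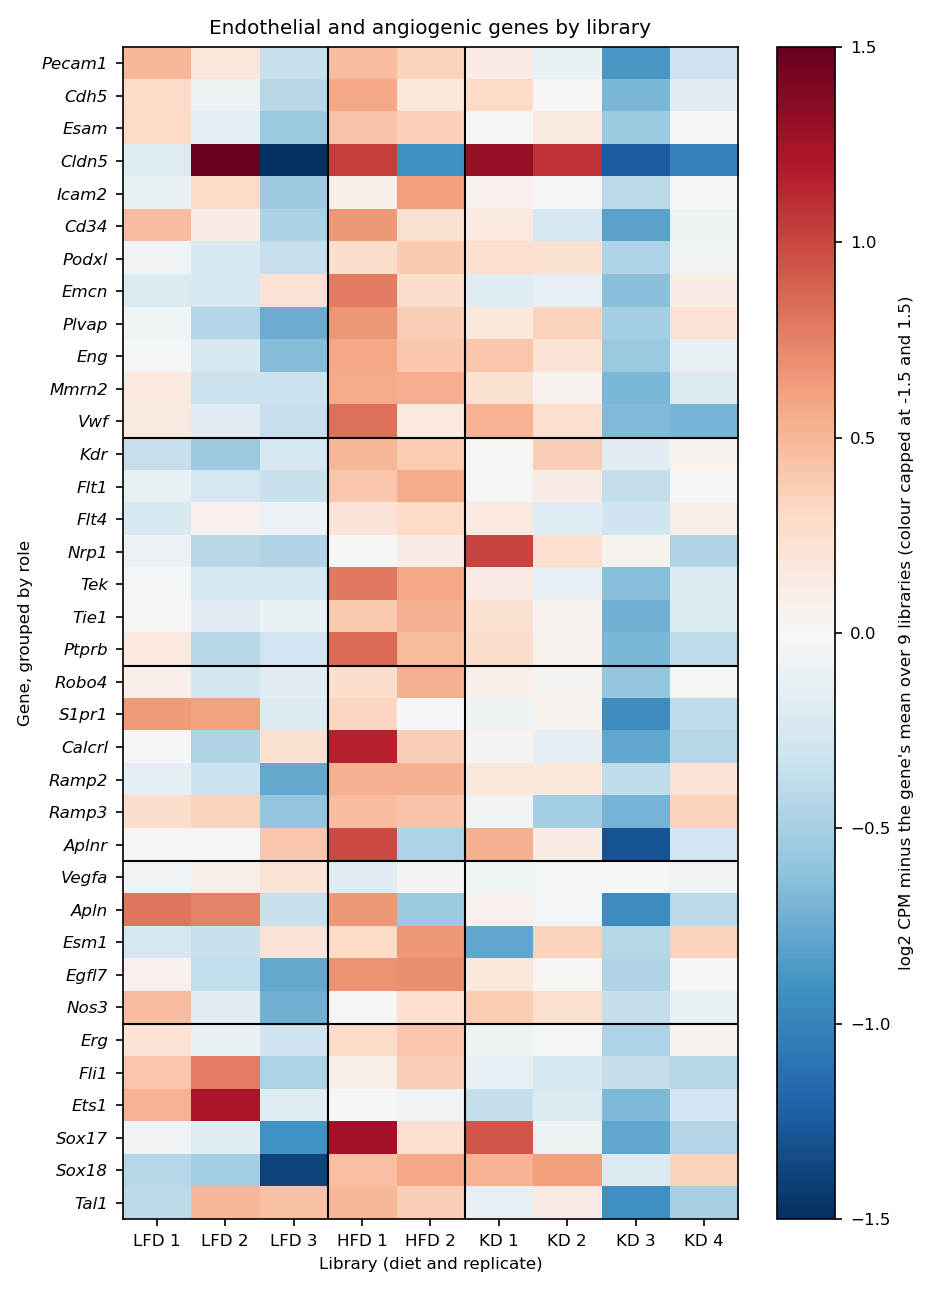
Each row is a gene, each column a library, and colour shows log2 CPM minus the gene's mean over the 9 libraries, with lines between diets and between roles. Counted against each gene's mean CPM, not the log2 mean shown, the HFD libraries are above for 32 and 31 of the 36 genes. KD replicate 3 is above that mean CPM for 0 of them.

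For KD against LFD the median log2 fold change of the 36 genes was 0.02, and the median over all genes was -0.02. Of the 36, 19 were above 0, against 48.1% of all genes. edgeR called 1 of the 36, Sox18, higher on KD, where 4.12% of all genes were called in either direction and 0.981% of all genes were called higher. The unadjusted edgeR p was under 0.05 for 6 of the 36 (16.7%), against 22.7% of all genes. Of these, 3 were higher on KD, against 10.8% of all genes, and 3 lower, against 11.9%. The 4 KD and 3 LFD libraries did not overlap for 3 of the 36. Kdr and Sox18 were higher on KD, against 9.69% of all genes, and Ets1 was lower, against 10.1%. Per raw library total, 1 of the 36 was above 0, and the median of all genes shifted by -0.59. The spread over genes was wide around the small median, from -1.0 for Ets1 to 1.07 for Sox18.

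KD against HFD uses the same 2 HFD libraries as the contrast of HFD with LFD, and most of its values were below 0. The median log2 fold change was -0.48 (all genes -0.04), and 3 of the 36 were above 0, against 46.6% of all genes. All 4 KD libraries lay below both HFD libraries for 23 of the 36, against 18.2% of all genes, and above both for 0, against 15.7%. edgeR called 0 of the 36 and 0% of all genes. The unadjusted p was under 0.05 for 12 of the 36, against 22.7% of all genes. All 12 were lower on KD, against 10.6% of all genes, and none was higher, against 12.1%. DESeq2 called 5 of the 36, Flt1, Tek, Ptprb, Calcrl and Egfl7, among 1388 genes in all, and limma-voom called 0 genes. The joint edgeR test over the 3 diets called 0 of the 36 where 2.17% of all genes were called, and 14 had an unadjusted p under 0.05, against 24.6% of all genes. In that joint test DESeq2 called 9 of the 36 among 2152 genes in all, and limma-voom 4 among 1592.

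**Figure D2:**
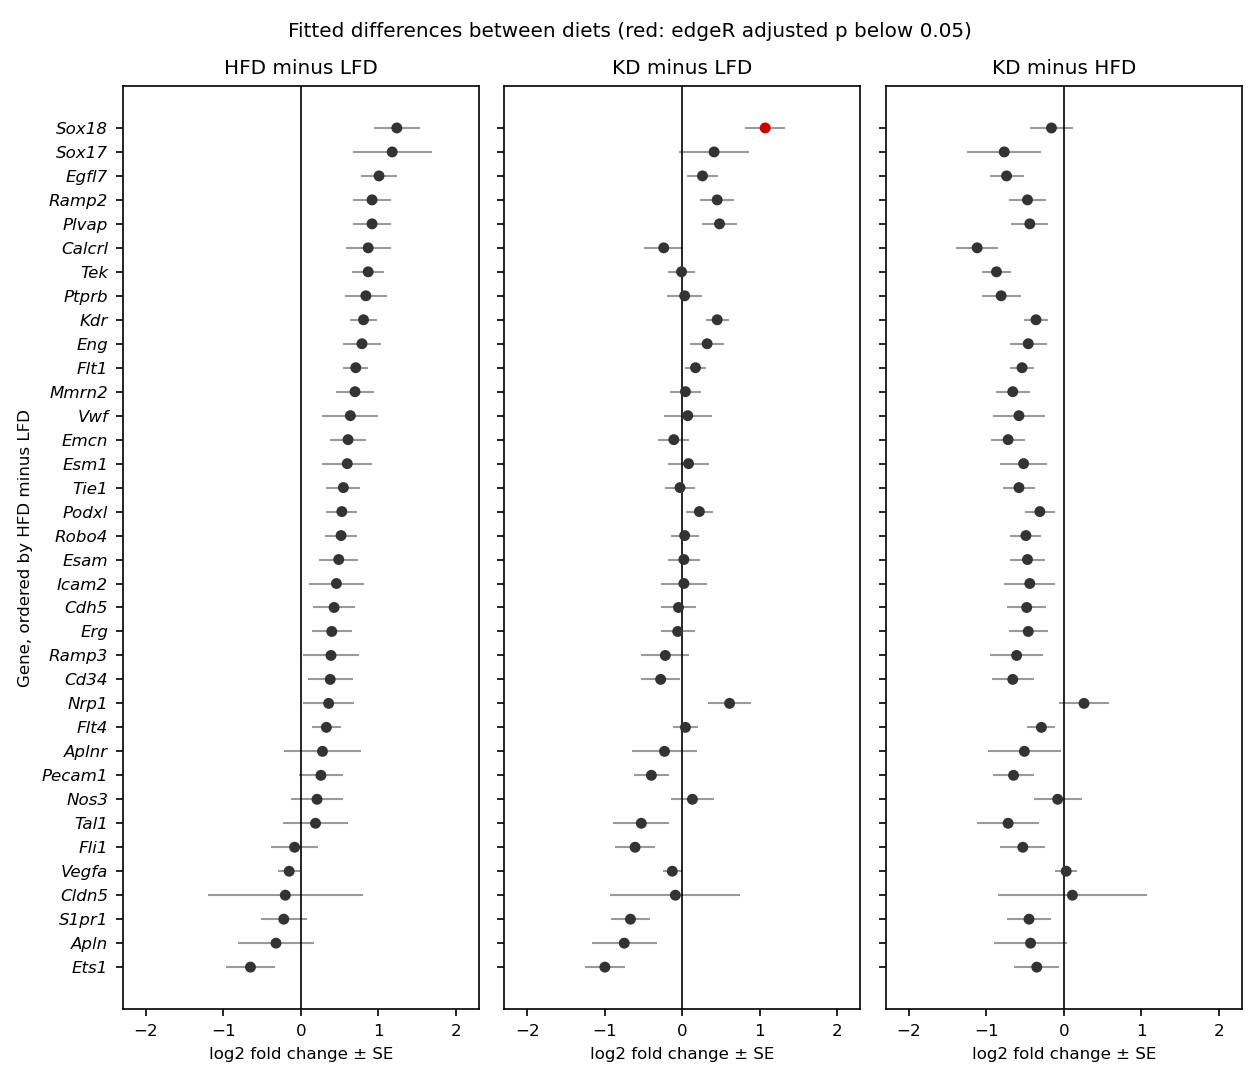
Points are fitted log2 fold changes and bars their standard errors for the 36 genes in the 3 contrasts, ordered by HFD minus LFD. Most points lie right of 0 for HFD minus LFD (30 of 36) and left of 0 for KD minus HFD (33 of 36), and Sox18 in KD minus LFD is the point past the threshold.

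The 7 receptors and partners of VEGF and angiopoietin signalling all lay on the same side of 0 on HFD. All 7 had log2 changes above 0 against LFD (0.33 to 0.87, median 0.71), and for all 7 both HFD libraries lay above the 3 LFD libraries, which held for 13.4% of all genes. None of the 7 passed the adjusted threshold in any contrast. Kdr (ENSMUSG00000062960), the main signalling receptor for VEGF-A, measured 75.1, 65.2 and 80.0 CPM on LFD, 135 and 124 on HFD, and 96.3, 123, 84.4 and 98.4 on KD. The diets were separated without overlap, lowest on LFD and highest on HFD. The fitted log2 change was 0.81 for HFD against LFD (± 0.17 SE, edgeR FDR 0.208), 0.45 on KD relative to LFD (± 0.15 SE, edgeR FDR 0.103) and -0.36 for KD against HFD (± 0.16 SE, edgeR FDR 0.216). limma-voom called Kdr for KD against LFD (FDR 0.0408).

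Flt1 (ENSMUSG00000029648), a high-affinity VEGF receptor that also acts as a decoy, measured 116, 106 and 100 CPM on LFD, 167 and 185 on HFD, and 124, 136, 98.4 and 125 on KD. The HFD libraries stood above all others, and those of LFD and KD overlapped. In log2 units the change was 0.71 for HFD against LFD (± 0.16 SE, edgeR FDR 0.231) and -0.54 for KD against HFD (± 0.15 SE, edgeR FDR 0.124). For KD against LFD it was 0.17 (± 0.14 SE, edgeR FDR 0.489). Tek (ENSMUSG00000006386), the angiopoietin receptor, measured 19.3, 16.3 and 16.4 CPM on LFD, 33.7 and 29.3 on HFD, and 21.3, 17.9, 12.5 and 17 on KD. The HFD libraries of Tek lay above all others, with means of 31.5 CPM on HFD and 17.2 on KD. The log2 change of Tek was 0.87 for HFD against LFD (± 0.21 SE, edgeR FDR 0.240), -0.01 on KD relative to LFD (± 0.18 SE, edgeR FDR 0.986) and -0.87 for KD against HFD (± 0.19 SE, edgeR FDR 0.124). DESeq2 called Tek in the contrasts that include HFD, with FDRs of 0.0307 against LFD and 0.00930 for KD against HFD.

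Tie1, an orphan receptor that partners TEK, had a mean of 30.8 CPM on LFD, 45.1 on HFD and 30.1 on KD. Ptprb, the phosphatase that restrains TEK, measured 152, 102 and 113 CPM on LFD, 248 and 191 on HFD, and 166, 143, 85.4 and 106 on KD. Its KD libraries all lay below those of HFD and overlapped those of LFD (log2 -0.81 ± 0.25 SE for KD against HFD, edgeR FDR 0.127). Flt4, the receptor for VEGF-C, had the smallest value among these receptors for HFD against LFD, a log2 of 0.33 (SE 0.19). Nrp1 (ENSMUSG00000025810), a co-receptor for VEGF-A and semaphorins that neurons and other cells also express, was the exception to the order of the diets. It measured 66.8, 53.1 and 51.8 CPM on LFD, 70.3 and 76.3 on HFD, and 143, 83.3, 73.2 and 51.8 on KD. Nrp1 had the highest KD mean of the 3 diets, with KD replicate 1 far above the rest. Its log2 change for KD against LFD was 0.61 (± 0.28 SE, edgeR FDR 0.224), and blocking on the replicate number gave 0.76 (edgeR FDR 0.0207). For KD against HFD it was 0.26 (± 0.32 SE, edgeR FDR 0.666) and turned to -0.08 without KD replicate 1.

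**Figure D3:**
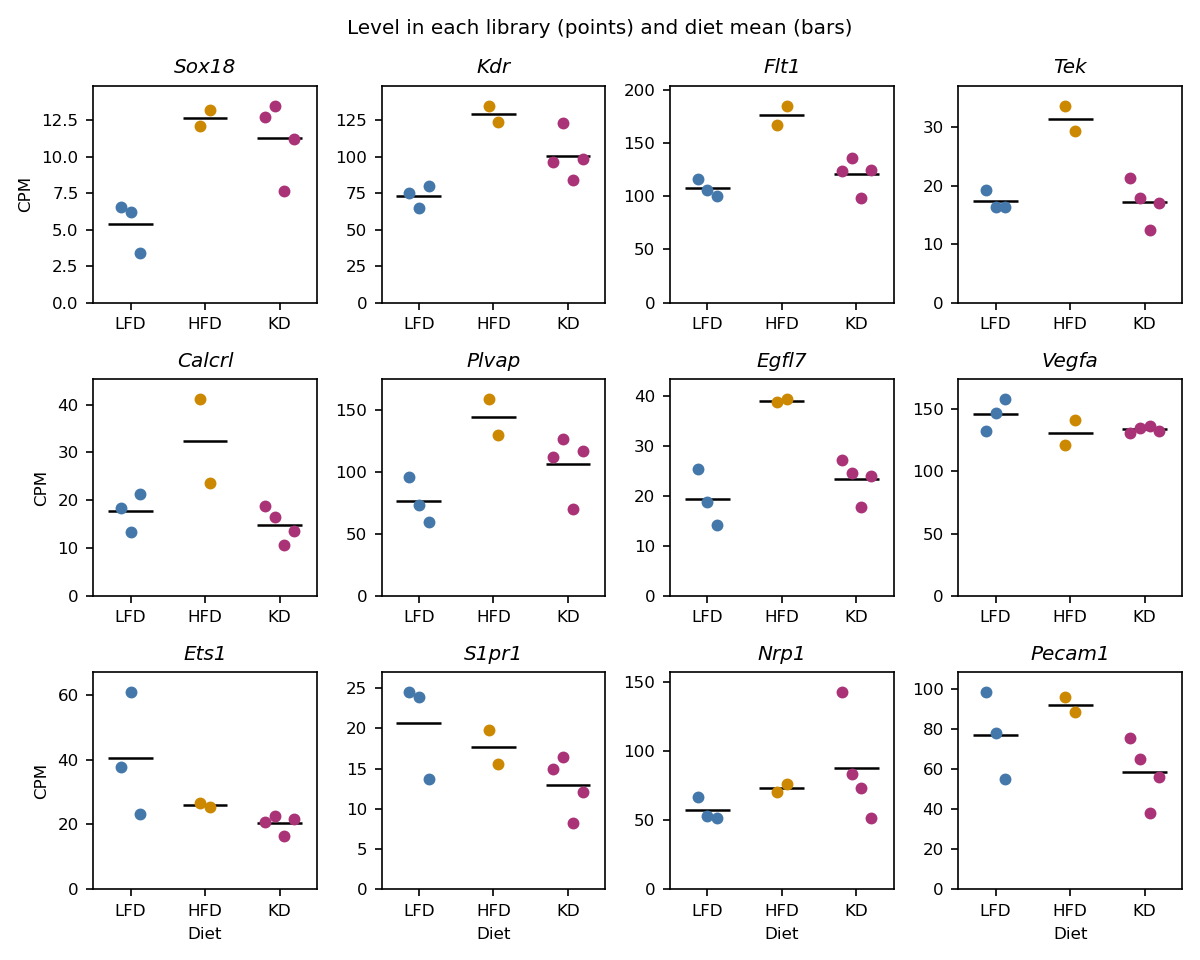
Each panel shows 1 gene, with a point per library and a bar at the diet mean, in CPM from 0. For Flt1, Tek and Egfl7 the HFD libraries lie above all others, for Sox18 both HFD and KD lie above LFD, and the Vegfa libraries stay between 121 and 158.

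Of the 5 secreted factors and enzymes, 3 had log2 changes above 0 for HFD against LFD (median 0.21). Vegfa (ENSMUSG00000023951), which in islets comes mainly from the endocrine cells, measured 132, 147 and 158 CPM on LFD, 121 and 141 on HFD, and 131, 135, 136 and 132 on KD. The 3 diets overlapped. The log2 change of Vegfa was -0.15 for HFD against LFD (± 0.14 SE, edgeR FDR 0.722), -0.13 on KD relative to LFD (± 0.12 SE, edgeR FDR 0.566) and 0.03 for KD against HFD (± 0.14 SE, edgeR FDR 0.926). Its standard errors were among the smallest of the 36 genes, and no alternative called it. Per raw library total the HFD against LFD value was 0.06.

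Egfl7 (ENSMUSG00000026921), a matrix protein secreted by endothelial cells that guides vessel tube formation, measured 25.4, 18.8 and 14.2 CPM on LFD, 38.7 and 39.4 on HFD, and 27.1, 24.5, 17.7 and 23.9 on KD. The HFD libraries were close to each other and above the other 7. Its log2 change for HFD against LFD was 1.01 (± 0.23 SE, edgeR FDR 0.231), and DESeq2 called it (FDR 0.0242). Esm1 (ENSMUSG00000042379), a proteoglycan gene of VEGF-stimulated tip cells, measured 17, 16.2 and 23.3 CPM on LFD, 25.1 and 32.1 on HFD, and 11.9, 25.9, 15.2 and 25.9 on KD. The KD libraries of Esm1 spanned most of the range of the other diets. The log2 fold change was 0.60 for HFD against LFD (± 0.32 SE, edgeR FDR 0.549), 0.08 on KD relative to LFD (± 0.27 SE, edgeR FDR 0.893) and -0.52 for KD against HFD (± 0.30 SE, edgeR FDR 0.316). Apln (ENSMUSG00000037010), which encodes the peptide apelin, was low, at 3.00, 2.87 and 1.36 CPM on LFD, 2.7 and 1.17 on HFD, and 1.79, 1.69, 0.891 and 1.30 on KD. The diets overlapped, and its log2 change was -0.32 for HFD against LFD (± 0.49 SE, edgeR FDR 0.840), -0.75 on KD relative to LFD (± 0.42 SE, edgeR FDR 0.310) and -0.43 for KD against HFD (± 0.47 SE, edgeR FDR 0.617). Nos3, the endothelial nitric oxide synthase, had means of 7.77, 8.95 and 8.46 CPM on LFD, HFD and KD.

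Of the 12 adhesion and surface genes, 11 had log2 changes above 0 for HFD against LFD (median 0.51), and both HFD libraries lay above all LFD libraries for 7, against 13.4% of all genes. Plvap (ENSMUSG00000034845), the diaphragm protein of fenestrae, measured 96.0, 73.7 and 59.9 CPM on LFD, 159 and 130 on HFD, and 112, 127, 70.5 and 117 on KD. HFD was highest, and 3 of the 4 KD libraries lay above every LFD library. Its log2 change was 0.92 for HFD against LFD (± 0.25 SE, edgeR FDR 0.293), 0.48 on KD relative to LFD (± 0.22 SE, edgeR FDR 0.213) and -0.44 for KD against HFD (± 0.24 SE, edgeR FDR 0.294). Eng, a TGF-beta co-receptor, followed the same order, with means of 56.6, 97.5 and 70.6 CPM on LFD, HFD and KD. Podxl, which podocytes also carry, had means of 71.2, 103 and 82.8 CPM in that order.

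The pan-endothelial adhesion genes were less separated. Pecam1 (ENSMUSG00000020717), the junction protein CD31, measured 98.5, 78.0 and 55.3 CPM on LFD, 96.0 and 88.5 on HFD, and 75.4, 64.9, 38.0 and 56.1 on KD. LFD replicate 1 was above both HFD libraries. The log2 change of Pecam1 was 0.26 for HFD against LFD (± 0.28 SE, edgeR FDR 0.757), -0.40 on KD relative to LFD (± 0.23 SE, edgeR FDR 0.337) and -0.65 for KD against HFD (± 0.26 SE, edgeR FDR 0.174). Cdh5 (ENSMUSG00000031871), the endothelial cadherin, measured 45.1, 34.8 and 27.7 CPM on LFD, 55.1 and 41.5 on HFD, and 45.3, 36.8, 22.9 and 32.9 on KD. All 3 diets overlapped for Cdh5. The fitted log2 change was 0.43 for HFD against LFD (± 0.27 SE, edgeR FDR 0.601), -0.05 on KD relative to LFD (± 0.23 SE, edgeR FDR 0.919) and -0.48 for KD against HFD (± 0.25 SE, edgeR FDR 0.279).

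Emcn, Mmrn2, Esam, Cd34, Vwf and Icam2, which encode surface, matrix and adhesion proteins of endothelium, had log2 changes of 0.38 to 0.70 for HFD against LFD and -0.72 to -0.44 for KD against HFD. Cldn5 (ENSMUSG00000041378), the tight junction claudin of barrier endothelium, was the exception, with 0.552, 2.02 and 0.188 CPM on LFD, 1.30 and 0.335 on HFD, and 1.56, 1.34, 0.267 and 0.314 on KD. Its libraries differed several-fold within each diet. The log2 change of Cldn5 for KD against HFD was 0.11 (± 0.96 SE, edgeR FDR 0.962), so no difference of that size was detectable.

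Calcrl and its partners Ramp2 and Ramp3 form the receptors for adrenomedullin and related peptides. Calcrl (ENSMUSG00000059588) measured 18.3, 13.4 and 21.4 CPM on LFD, 41.2 and 23.6 on HFD, and 18.9, 16.5, 10.7 and 13.6 on KD. The HFD libraries were above all others but far apart. Its log2 change was the most negative of the 36 genes for KD against HFD, at -1.12 (± 0.27 SE, edgeR FDR 0.124), and DESeq2 called it (FDR 0.0123). Ramp2, needed for vessel integrity, measured 6.07, 5.38 and 3.94 CPM on LFD, 9.70 and 9.72 on HFD, and 7.55, 7.48, 5.17 and 7.75 on KD. Ramp3 had means of 4.38, 5.73 and 3.73 CPM. Robo4, a guidance receptor that stabilises vessels, had means of 15.7, 22.5 and 16.1 CPM on LFD, HFD and KD, and Aplnr, the apelin receptor, 3.39, 4.14 and 2.87.

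S1pr1 (ENSMUSG00000045092), the sphingosine 1-phosphate receptor of endothelium and of circulating lymphocytes, was among the 6 genes below 0 for HFD against LFD. It measured 24.5, 23.9 and 13.7 CPM on LFD, 19.8 and 15.6 on HFD, and 15.0, 16.4, 8.28 and 12.1 on KD. LFD replicates 1 and 2 were highest, and the KD libraries overlapped LFD replicate 3. In log2 units the change was -0.67 on KD relative to LFD (± 0.25 SE, edgeR FDR 0.150) and -0.22 for HFD against LFD (± 0.30 SE, edgeR FDR 0.819).

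Sox18 (ENSMUSG00000046470), an endothelial transcription factor of vessel and lymphatic development, was the gene that passed the threshold. It measured 6.56, 6.18 and 3.38 CPM on LFD, 12.1 and 13.2 on HFD, and 12.7, 13.5, 7.66 and 11.2 on KD. All 4 KD and both HFD libraries were above all 3 LFD libraries. Sox18 rose 2.11-fold on KD against LFD (log2 1.07 ± 0.26 SE, edgeR FDR 0.0452). For HFD against LFD the log2 value was larger, 1.24, but did not pass (± 0.30 SE, edgeR FDR 0.240), and for KD against HFD it was -0.16 (± 0.28 SE, edgeR FDR 0.768). The call lay near the threshold. Among the omissions of 1 library it held only without KD replicate 4 (edgeR FDR 0.0450), and in the other 8 the FDR was 0.0553 to 0.115. Without LFD replicates 1 to 3 these were 0.0938, 0.0851 and 0.0811, without HFD replicates 1 and 2 they were 0.0703 and 0.0709, and without KD replicates 1 to 3 they were 0.0901, 0.115 and 0.0553. With DESeq2 the FDR was 0.00477, with limma-voom 0.0288, with the replicate block 0.00609 and with the acinar score 0.0535. Per raw library total the log2 value was 0.52 (edgeR FDR 0.343), where the median of all genes was shifted by -0.59.

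Sox17, the related arterial factor, had 2.21, 2.02 and 1.22 CPM on LFD, 5.50 and 2.72 on HFD, and 4.43, 2.18, 1.34 and 1.70 on KD. Its log2 change for HFD against LFD was 1.18, the second of the 36 in size, with a wide error (± 0.51 SE, edgeR FDR 0.487). Erg, an ETS factor largely restricted to endothelium in this tissue, had means of 4.62, 6.09 and 4.40 CPM on LFD, HFD and KD, and Tal1, shared with blood progenitors, 1.79, 2.06 and 1.23.

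Ets1 (ENSMUSG00000032035), an ETS factor that lymphocytes also express strongly, measured 37.8, 60.9 and 23.2 CPM on LFD, 26.5 and 25.4 on HFD, and 20.6, 22.7, 16.5 and 21.6 on KD. All KD libraries were below all LFD libraries, and LFD replicate 2 was far above the rest. The log2 fold change was -1.0 on KD relative to LFD (± 0.26 SE, edgeR FDR 0.0575) and -0.65 for HFD against LFD (± 0.32 SE, edgeR FDR 0.522). DESeq2 called Ets1 for KD against LFD (FDR 0.00989), as did edgeR without LFD replicate 3 (FDR 0.00323). Fli1, an ETS factor of endothelium and blood cells, measured 10.9, 14 and 5.96 CPM on LFD, 8.85 and 10.6 on HFD, and 7.55, 6.86, 6.41 and 6.14 on KD. Of the 12 lymphocyte genes, 10 fell on KD against LFD by edgeR, where it called 582 of all 18548 genes lower. Among the 10 were Cd79a, Ms4a1, Cd3e and Trac. The list's summed share of counts was highest in LFD replicates 2 (0.153%) and 1 (0.0539%), the libraries in which Ets1, Fli1 and S1pr1 were also highest. When a lymphocyte score, added after the data were seen, entered the fit, Ets1 and S1pr1 had values of 1.15 and 0.85 on KD relative to LFD (edgeR FDR 0.264 and 0.558). This turn was not limited to genes shared with lymphocytes. The same fit put 30 of the 36 genes above 0, with a median of 0.80, and gave 0.78 for Pecam1 and 0.83 for Cdh5, and it called 0 of all genes. The summed lymphocyte level was 66.8 to 1230 CPM on LFD and 6.15 to 26.1 on KD, without overlap. For KD against LFD this fit therefore cannot separate that level from diet.

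To describe how the genes moved among themselves, each was set against 6 core endothelial genes (Pecam1, Cdh5, Tie1, Erg, Robo4 and Mmrn2) in the same library. This ratio does not depend on the scaling of libraries. The geometric mean of the core genes was 27.3, 21.6 and 19.6 CPM on LFD, 31.7 and 31.7 on HFD, and 26.2, 23.7, 14.9 and 21.5 on KD. KD replicate 3 had the lowest core level of the 9. The differences of HFD and of KD from LFD share the LFD libraries, so their likeness is no result. Relative to the core, Sox18 had a log2 ratio of -2.05, -1.80 and -2.54 on LFD, -1.39 and -1.27 on HFD, and -1.05, -0.82, -0.96 and -0.94 on KD. KD replicate 3, low in CPM, lay within the narrow KD range on this scale, and the mean difference from LFD was 1.19 on KD and 0.80 on HFD.

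Plvap, Ramp2, Eng and Egfl7 were also higher relative to the core on both diets, without overlap with LFD. The difference from LFD was 0.57 on KD and 0.45 on HFD for Plvap, 0.55 and 0.45 for Ramp2, 0.40 and 0.31 for Eng, and 0.38 and 0.56 for Egfl7. For Kdr it was 0.54 and 0.33, but LFD replicate 3 (2.03) lay above KD replicate 1 (1.88) and HFD replicate 2 (1.96). Tek differed by 0.38 on HFD and 0.07 on KD, and Calcrl by 0.36 and -0.15. Vegfa was lower relative to the core on HFD, by -0.64, and differed by -0.02 on KD. Ets1, S1pr1, Apln and Fli1 were lower on both, by -1.03 and -0.80, -0.67 and -0.58, -0.84 and -0.63, and -0.49 and -0.43 on HFD and KD. Of the 30 genes outside the core, the KD libraries lay wholly above LFD for 6, against 5.64% of all genes on this scale, and wholly below for 2, against 6.54%. The HFD libraries lay wholly above LFD for 8, against 1.55% of all genes, and wholly below for 4, Vegfa among them, against 44.2%. The core genes are themselves members, and their level was higher in both HFD libraries (31.7 CPM) than in any LFD library. The ratio therefore falls on HFD for any gene that did not rise with the core, Vegfa included. The shares of 1.55% and 44.2% follow from that choice of core, so the counts beside them are no enrichment.

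**Figure D4:**
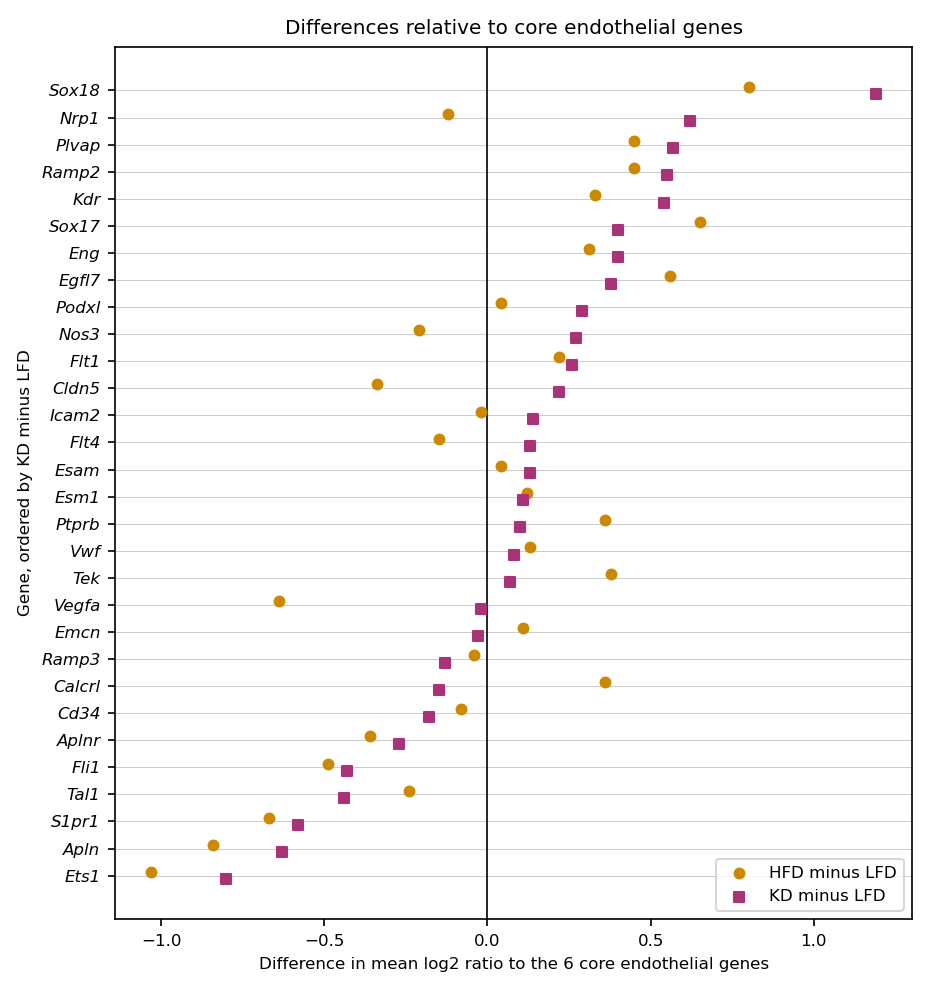
Points show, for the 30 genes outside the core, the difference in mean log2 ratio to the 6 core genes for HFD minus LFD (circles) and KD minus LFD (squares), which share the LFD libraries. Sox18 lies farthest right and Ets1 farthest left on KD, and Vegfa lies at -0.64 on HFD and -0.02 on KD.

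Other genes of the same pathways were read from lists. Of 22 further genes of VEGF and angiopoietin signalling, edgeR called 3 when KD was set against LFD (median log2 -0.12), of which 1 was higher, where 4.12% of all genes were called and 0.981% called higher. Vegfb, a FLT1 ligand linked to lipid handling in muscle and heart, rose from 11.3, 12.9 and 11.2 CPM on LFD to 24.3, 17.2, 25.8 and 18.4 on KD, with 10.5 and 14.4 on HFD (log2 0.86 ± 0.19 SE, edgeR FDR 0.0313). The KD libraries of Vegfb lay above all others. It passed in 11 of 20 alternatives, and with the acinar score its log2 change was 0.72 (edgeR FDR 0.0603). The lower genes were the heat shock protein gene Hspb1 (log2 -1.67 ± 0.25 SE, edgeR FDR 0.00985) and the T cell adaptor gene Sh2d2a (edgeR FDR 0.0200), which is also known to bind KDR. Sh2d2a was low, at 0.613, 5.47 and 0.797 CPM on LFD, and did not exceed 0.0891 CPM on KD. Without LFD replicate 2 it did not pass (edgeR FDR 0.0695). The placental ligand gene Pgf had 17.4, 21.6 and 16.6 CPM on LFD, 11.7 and 9.30 on HFD, and 22.1, 20.2, 21.6 and 9.90 on KD. Angpt1, the TEK agonist of mural and other cells, had 10.7, 5.78 and 7.46 CPM on LFD, 4.80 and 3.39 on HFD, and 11.1, 7.26, 9.62 and 3.14 on KD. For Pgf and Angpt1, KD replicate 4 lay near the HFD libraries. Angpt2, the TEK ligand of activated endothelium, had 5.64, 4.17 and 5.44 CPM on LFD, 4.80 and 6.96 on HFD, and 1.79, 2.58, 1.78 and 4.08 on KD. All KD libraries of Angpt2 lay below all others, and it did not pass the threshold. Vegfc, the FLT4 ligand, lay between 0.980 and 3.90 CPM in all libraries.

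Of 19 tested genes of Notch and BMP signalling, edgeR called 3 for KD against LFD, where 4.12% of all genes were called. Smad6, an inhibitor of BMP signalling that flow-exposed endothelium expresses, rose from 3.80, 5.02 and 2.86 CPM on LFD to 12.3, 6.99, 9.08 and 8.83 on KD (log2 1.25 ± 0.25 SE, edgeR FDR 0.0243), and measured 8.85 and 8.42 on HFD. As for Sox18, all LFD libraries of Smad6 lay below those of both other diets. These differences share the LFD libraries, so their likeness is no result. Smad6 passed in 15 of 20 alternatives. The Notch ligand gene Jag2 rose from 15.8, 17.2 and 16.3 CPM on LFD to 24.8, 25.0, 21.6 and 27.4 CPM on KD (log2 0.59 ± 0.13 SE, edgeR FDR 0.0315), and the BMP-binding gene Bmper fell (log2 -2.21 ± 0.53 SE, edgeR FDR 0.0418). Jag2 passed in 12 of 20 alternatives and Bmper in 9 of 19. Bmper was low in all libraries, at 1.53, 1.7 and 1.36 CPM on LFD, 1.2 and 2.3 on HFD, and 0.7, 0.267, 0.0891 and 0.269 on KD. Dll4, the tip cell Notch ligand, measured 10.2, 11.1 and 11.6 CPM on LFD, 11.9 and 18.2 on HFD, and 8.71, 9.98, 6.77 and 10.1 on KD. Its Notch target Hey1 measured 2.15, 2.15 and 2.02 CPM on LFD, 3.70 and 3.77 on HFD, and 2.96, 3.39, 2.32 and 2.51 on KD.

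Of 17 tested hypoxia-response genes, edgeR called 0 in each contrast, and the unadjusted p was under 0.05 for 6 on KD against LFD (22.7% of all genes), 1 on HFD against LFD (9.99%) and 4 on KD against HFD (22.7%). The 6 were divided into 3 higher and 3 lower. DESeq2 and limma-voom each called 3 for KD against LFD, among 1624 and 1867 genes in all. The HIF target Egln3 measured 3.31, 2.82 and 0.469 CPM on LFD, 1.35 and 0.922 on HFD, and 0.622, 0.356, 0.356 and 0.538 on KD, and Adm, the adrenomedullin gene, stayed at or below 1.17 CPM. For neither gene did an HFD or KD library exceed the highest LFD library. The 3 higher genes, named after their values were seen, were Egln1, Pdk1 and Hk2. Egln1, an oxygen-sensing hydroxylase gene, measured 32.3, 34.5 and 30.5 CPM on LFD, 30.6 and 33.4 on HFD, and 51.4, 45.1, 46.2 and 39.3 on KD, with all KD libraries above the others (log2 0.49 ± 0.13 SE for KD against LFD, edgeR FDR 0.0529). The log2 values of the glucose metabolism genes Pdk1 and Hk2 were 0.96 and 1.33 (edgeR FDR 0.0967 and 0.219). Pdk1 measured 39.9, 31.5 and 32.5 CPM on LFD, 40 and 24.1 on HFD, and 89.5, 60.9, 83.2 and 35.3 on KD. Hk2 measured 11.1, 7.17 and 3.24 CPM on LFD, 3.85 and 1.68 on HFD, and 27.3, 11.3, 27.3 and 6.54 on KD. For both genes KD replicate 4 lay within the LFD range.

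Of 34 other endothelial markers, 24 had log2 changes above 0 for HFD against LFD (median 0.23) and 27 below 0 for KD against HFD (median -0.43). Over all genes, 49.8% were above 0 for HFD against LFD and 46.6% for KD against HFD. edgeR called 0 in those contrasts, where 13 and 12 had an unadjusted p under 0.05, against 9.99% and 22.7% of all genes. The 13 for HFD against LFD were 10 higher and 3 lower, against 3.55% and 6.44% of all genes. The 12 for KD against HFD were all lower, against 10.6% of all genes. edgeR called 2 lower for KD against LFD, where it called 582 of all 18548 genes lower. They were the immediate-early gene Apold1 (log2 -1.06 ± 0.24 SE, edgeR FDR 0.0315) and Hhex, which delta cells also express (log2 -0.88 ± 0.16 SE, edgeR FDR 0.0180). Adgrl4, an adhesion receptor of endothelium named here after its values were seen, measured 36.5, 25.6 and 30.8 CPM on LFD, 66.8 and 56.6 on HFD, and 30.1, 35.2, 24.4 and 32.3 on KD. Its log2 change for HFD against LFD was 0.99 (± 0.19 SE, edgeR FDR 0.159).

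Neighbouring vascular cell types were checked beside these genes. Of 12 pericyte and mural markers, edgeR called 0 in each contrast. The unadjusted edgeR p was under 0.05 for 2 (KD against LFD), 0 (HFD against LFD) and 2 (KD against HFD). In the same order, the shares over all genes were 22.7%, 9.99% and 22.7%. DESeq2 and limma-voom each called 1 for KD against LFD, among 1624 and 1867 genes in all. All 12 had log2 values below 0 for KD against LFD (median -0.52), where 48.1% of all genes were above 0. The summed level of these markers was 304 to 653 CPM on LFD, 369 to 495 on HFD, and 192 to 378 on KD. The pericyte gene Rgs5 measured 227, 156 and 163 CPM on LFD, 305 and 189 on HFD, and 114, 134, 82.6 and 162 on KD, and Pdgfrb had 17.9 to 38.0, 23.9 to 33.3 and 12.4 to 26.8 CPM. Of 7 lymphatic markers, 3 fell for KD against LFD, where edgeR called 582 of all 18548 genes lower. They were Pdpn, Reln and Stab2 (log2 -1.49, -0.88 and -1.62, edgeR FDR 0.0488, 0.0310 and 0.0358). These 3 genes are not restricted to lymphatic vessels, and they passed in 9, 13 and 8 alternatives. All 7 markers had log2 values below 0 for KD against LFD. The KD libraries lay wholly below LFD for 5 of the 7, against 10.1% of all genes. The unadjusted edgeR p was under 0.05 for 5, against 22.7% of all genes. For HFD against LFD 6 of the 7 were below 0. The unadjusted edgeR p was under 0.05 for 4 lower and 1 higher, against 6.44% and 3.55% of all genes. Lyve1, a more specific marker that some macrophages carry, measured 12.7, 9.54 and 9.94 CPM on LFD, 11.8 and 24.8 on HFD, and 6.07, 13.3, 9.71 and 11.5 on KD, and Prox1, which endocrine cells express too, lay between 55.9 and 92.3 CPM throughout. Other cells of the preparation also differed between diets. The 8 tested platelet and red cell genes summed to 56.5 to 80.0 CPM on LFD, 72.7 to 148 on HFD, and 15.8 to 45.5 on KD, with median log2 values of 0.50 for HFD against LFD and -1.60 for KD against HFD. Of these, the haemoglobin gene Hba-a1 fell on KD against LFD (log2 -1.20 ± 0.27 SE, edgeR FDR 0.0315).

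The 10 macrophage genes summed to 93.8 to 210 CPM on LFD, 110 and 134 on HFD, and 39.6 to 79.0 on KD (median log2 -0.79 for KD against HFD). Lyz2 and the pan-leukocyte gene Ptprc fell on KD against LFD (edgeR FDR 0.0210 and 0.00802). The 10 fibroblast and stellate genes summed to 260 to 515, 283 to 302 and 120 to 308 CPM (median log2 -0.64 for KD against HFD). edgeR called 0 of them, and 6 had an unadjusted p under 0.05 for KD against LFD, against 22.7% of all genes. Of 10 duct genes, Krt19, Cftr and Spp1 fell on KD against LFD (edgeR FDR 0.0140, 0.0104 and 0.0115). The background for the duct and macrophage calls was 582 of all 18548 genes called lower. The summed platelet and red cell levels and the summed macrophage levels were lower in every KD library than in any LFD or HFD library. Summed fibroblast and mural levels overlapped between the diets, and edgeR called 0 of these genes in each contrast. Their log2 values for KD against LFD nevertheless all lay below 0. The part of these other cells in the endothelial values was not tested. For KD against LFD the fit with the lymphocyte score cannot separate the lymphocyte level from diet.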

How the data were processed

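Poly(A)-selected islet RNA had been sequenced from stranded libraries, per the labels' protocols. The authors deposited raw gene counts. Per the submitters' processing notes the tools were cutadapt 1.16, STAR 2.7.9a, featureCounts 1.6.3 and DESeq2 1.40.2 on GRCm39. The annotation release, the strand setting and the treatment of shared reads are not given in the sources used here. Overlapping genes may therefore share reads.

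Genes with low counts were removed with filterByExpr by diet, which left 18548 genes holding at least 99.86% of each library's counts. Libraries were scaled by TMM, and 1 model with a mean per diet was fitted to all 9 libraries with edgeR 4.0.16 (robust quasi-likelihood) in R 4.3.3. The false discovery rate is the Benjamini-Hochberg adjusted p over all 18548 genes, with a threshold of 0.05, and the standard error is the log2 fold change over the square root of F. limma 3.58.1 (voom with quality weights) and DESeq2 1.42.0 were alternatives, beside other scalings, filters, covariates, a replicate block and the omission of each library.

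The 36 genes and the other lists were chosen with earlier results of these data known. All 36 are named. Values per library are given for genes past the threshold, for the 3 largest and 3 smallest changes of each contrast and for a set of main vessel genes. Genes of other lists are named where they passed the threshold or were listed by name, except that the lymphocyte list is given by its count and some examples. Replicate libraries differed by more than sampling noise. The labels give no batch. The fit was tested on simulated counts.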

Additional observations from a re-analysis of the deposited data

Results flagged for a closer look

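KD replicate 3 lay far from the other KD libraries for Robo4 and Ramp2. Robo4 measured 11.4 CPM there and 17.3 to 18 in the other 3 KD libraries, and Ramp2 measured 5.17 CPM against 7.48 to 7.75. In both cases the gap to the nearest library took most of the range of the group (0.894 and 0.895, where Dixon's critical value for 4 libraries is 0.829). Of 37 groups of 4 libraries tested, 2 were marked in this way, and chance marks about 1 in 20. The same library was the lowest of the 9 for 20 of the 36 genes, and its core endothelial level was 14.9 CPM against 21.5 to 26.2 in the other KD libraries.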

How the results depend on the processing

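The median for HFD against LFD stayed above 0 in every alternative run (0.35 to 1.08). The counts of calls depended on the tool and the scaling. Below, counts are of the 36 genes and then of all genes, for KD against LFD, HFD against LFD, KD against HFD and the joint test, where they moved. With library totals and no scaling they were 3 and 1653, 16 and 1550 (KD against HFD), and 9 and 1523 (joint), with medians of -0.57 (KD against LFD) and -1.26 (KD against HFD). With DESeq2 they were 2 and 1624, 5 and 256, 5 and 1388, and 9 and 2152. With limma-voom they were 3 and 1867, 10 genes in all for HFD against LFD, and 4 and 1592 jointly. With no filter they were 3 and 81, 2 and 316, and 6 and 1221 for the last 3 tests, and with at least 5 CPM in 3 libraries 0 and 383, and 148 genes jointly. With only the 2 diets compared, 0 of the 36 were called for KD against LFD. The acinar score gave 0 and 1312, and 3 and 854 jointly. The lymphocyte score, added after the data were seen, gave 0 and 0 for KD against LFD, 30 genes for KD against HFD and 0 jointly, with medians of 0.80 and 1.08 against LFD. Omitting 1 library gave 0 to 2, 0 to 0, 0 to 3 and 0 to 5 of the 36, 151 to 1348, 0 to 194, 0 to 1793 and 36 to 1827 genes, and medians of -0.10 to 0.13, 0.44 to 0.58 and -0.56 to -0.36.

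Whether the replicate numbers pair the libraries is not known, and the correlations do not settle it. Same-numbered libraries had correlations of -0.0164 to 0.222, with 1 of 7 over 0.1, and 4 of 8 libraries correlated best with their own number. The replicate block gave 4 and 2003, 2 and 395, 4 and 2320, and 9 and 2820 calls, and changed the sign of Esm1 (-0.12, KD against LFD) and Sox18 (0.07, KD against HFD).

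Signs also turned, mostly for values near 0, and the cause was not tested. Per library total, the median of all genes was -0.59 for KD against LFD, 0.20 for HFD against LFD and -0.81 for KD against HFD. On that scale, KD against LFD was -0.08 for Nrp1, -0.03 for Plvap, -0.10 for Kdr, -0.38 for Flt1 and -0.39 for Esm1. HFD against LFD was 0.06 for Vegfa, and KD against HFD was -0.67 for Nrp1, -0.71 for Cldn5 and -0.77 for Vegfa. With the lymphocyte score, KD against LFD was 1.15 for Ets1, 1.02 for Apln, 0.85 for S1pr1, 0.78 for Pecam1, 0.83 for Cdh5, 0.30 for Tek, -0.37 for Esm1 and 0.11 for Pdpn. HFD against LFD was 1.04 for Ets1, 1.09 for Apln and 0.97 for S1pr1, and KD against HFD -0.01 for Vegfa and 0.19 for Sox18. With the acinar score, KD against HFD was -0.60 for Nrp1, -1.51 for Cldn5 and 0.25 for Esm1, and with the 5 CPM filter -0.01 for Vegfa.
Omitting 1 library gave -0.21 to 0.14 for Cdh5 (KD against LFD), -0.12 to 0.11 for Tek (KD against LFD), -0.08 to 0.26 for Esm1 (KD against LFD), -1.03 to 0.17 for Apln (HFD against LFD), -0.08 to 0.44 for Nrp1 (KD against HFD), -0.57 to 1.37 for Cldn5 (KD against HFD), -0.07 to 0.14 for Vegfa (KD against HFD) and -0.91 to 0.29 for Apln (KD against HFD). Cldn5, with 3 to 45 counts per library, had the widest errors of the 36 genes.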
